A study of Mus musculus with 4 samples.

Results

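Among 103288 merged hypersensitive regions of a mouse mammary cell line, 1220 were listed in the untreated library and after estradiol (E2) and were missing from both libraries of cells given dexamethasone (Dex). These Dex-missing regions were found by merging the region lists of the 4 libraries, with overlapping or touching regions joined, and by keeping the merged regions that hold an untreated and an E2 region and no region from Dex or Dex+E2. The members were thus chosen by the calls of all 4 libraries. They made up 1.18% of all merged regions (Wilson 95% interval, 1.12 to 1.25), 1.87% of those with an untreated region and 3.61% of those with an E2 region. Missing from a list means that the site fell short of the authors' calling threshold in that library, and no density is given for it there. The data therefore do not show that these sites were closed after Dex.

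The line, 7438, comes from mouse mammary cells and expresses fusions of the glucocorticoid receptor (GR) with GFP and of the estrogen receptor (ER) with Cherry, each from a tetracycline-regulated promoter. In all 4 groups tetracycline was withdrawn 24 h before hormone, so the untreated cells made both receptors too. Cells received no hormone, 100 nM Dex, 100 nM E2, or 100 nM of each, for 30 min, and open chromatin was then mapped by DNase-seq. Each condition had 1 library, so nothing here could be tested against a spread between replicates, and every interval covers counting error only.

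GR and ER are nuclear receptors that bind DNA as dimers once their steroid ligand is present. GR binds mostly where chromatin is already open, and it also opens some closed sites by recruiting remodelling complexes. Dex is a synthetic ligand of GR, and E2 is the natural ligand of ER. Loss of hypersensitivity at some sites after glucocorticoid has been described in mammary cells. DNase I cuts DNA where nucleosomes are displaced, so a site dense in cuts marks a promoter, enhancer or other regulatory element. No genome or gene annotation of build mm9, in which the lists are given, was used here, and so the regions are named by position, without genes or sequence.

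The lists held 65879 untreated, 51251 Dex, 35496 E2 and 50061 Dex+E2 regions. Densities below are maximum tag densities as deposited, where 1 tag was worth 0.255 in the untreated and 0.200 in the E2 library. The untreated library stood apart on this scale: over the 20687 regions in all 4 lists its median density was 30.1, while the Dex, E2 and Dex+E2 libraries had medians of 14.7, 10.2 and 15.4. With 1 library per condition, that shift and the treatment cannot be told apart.

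Of the 24486 merged regions with both an untreated and an E2 region, 12.1% were missing from the Dex list, 8.38% from the Dex+E2 list and 4.98% from both, the last being the 1220 Dex-missing regions. A further 1746 were missing from Dex only and 833 from Dex+E2 only. The pattern with the hormones exchanged, regions in the untreated and Dex lists and in neither E2 list, had 4240 members, which was 13.3% of the 31784 regions in the untreated and Dex lists. The E2 list is the shortest of the 4, so these counts cannot be set against each other as effects of the hormones. The opposite pattern, regions in the Dex and Dex+E2 lists only, had 1984 members, which was 6.83% of the regions in these lists.

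Most Dex-missing regions were weak where they were listed. In untreated cells their density ran from 2.04 to 34.4 with a median of 7.65, which was 30 tags at the summit, and the middle of the range lay between 5.61 and 10.2 (quartiles). After E2 it ran from 2.20 to 17.6 with a median of 5.60, or 28 tags. The median member stood at percentile 40.3 of the untreated list and at percentile 24.5 of the E2 list. By contrast, the regions found in all 4 lists had medians of 30.1 untreated and 10.2 after E2. Untreated medians close to that of the members were seen at regions in the untreated and Dex lists only (8.67). The same held for regions in the untreated and Dex+E2 lists only (8.42), so low density is not particular to the members. Intermediate medians were seen at the regions missing from Dex only (10.2 and 6.40) and from Dex+E2 only (10.7 and 6.0). These densities belong to the same calls that decided which regions are members, so they are a description and were not tested.

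The Z scores that the authors gave each region against its own library placed many Dex-missing regions close to the threshold. The lowest score in the E2 list was 5.26, and 708 of the 1220 (58.0%) lay within 1 of it, against 29.7% of all E2 regions and 14.7% of the regions in both the untreated and E2 lists. In the untreated list, whose lowest score was 4.95, 295 members (24.2%) lay within 1 of it, against 25.3% of all untreated regions and 3.09% of the regions in both lists.

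As deposited, E2 density was lower than untreated density at most Dex-missing regions, by a median log2 of −0.38 (quartiles −0.75 and −0.08). Over all regions in both lists the median was −1.47. At least 2-fold lower density after E2 was seen at 156 of the 1220 (12.8%), where 74.7% of all regions in both lists passed this limit. Higher density after E2 was seen at 231 (18.9%), against 5.53% of all regions in both lists. No member was 2-fold higher after E2 (0 of 1220, which allows a share of up to 0.246%; 0.208% of all regions in both lists were). With each density divided by its library's median at the sites of all 4 lists, the median log2 ratio was 1.18, and 773 members (63.4%) were at least 2-fold higher after E2, against 14.4% of all. On this scale 0.38% of all regions and no member were 2-fold lower. The sign of the typical difference thus depends on the scaling. Since membership needs a call in the E2 list, nothing about E2 is read from these ratios.

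**Figure D1:**
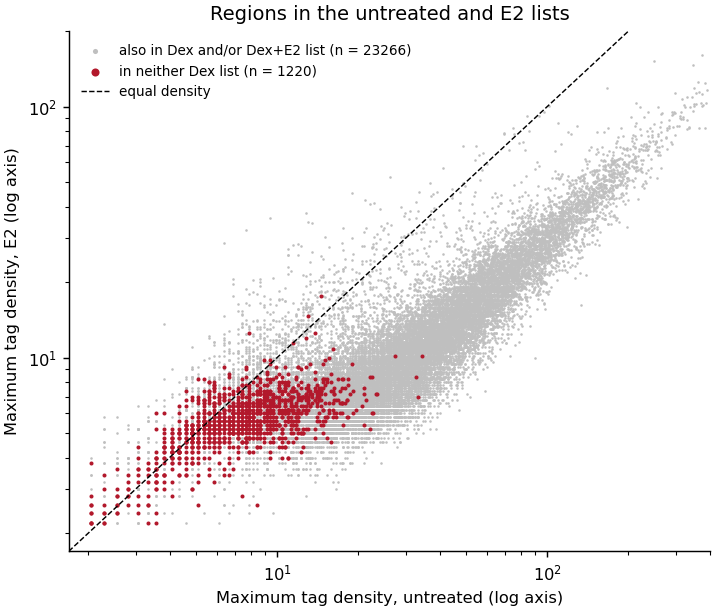
Maximum tag density in untreated cells (horizontal, log axis) and after E2 (vertical, log axis) for the 24486 regions in both lists, with the 1220 regions in neither Dex list in red and the rest in grey. Each point is 1 merged region, the axes end at 400 and 200 and leave out 21 grey points, and the red points lie at the low end of both scales, with medians of 7.65 and 5.60.

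The share of regions that were missing from both Dex lists was lower among denser regions. Among regions in the untreated and E2 lists with an E2 density below 4, 122 of 512 (23.8%, 20.3 to 27.7) were Dex-missing. The share was 14.2% at densities from 5 to below 6, 5.59% from 7 to below 8 and 1.39% from 8 to below 10. At an E2 density of 15 or more it was 1 of 5885 (0.017%, 0.003 to 0.0962). By untreated density, the share was 32.8% below 5 and did not fall at once, being 34.7% from 5 to below 6. Among denser regions, 11.8% of those from 10 to below 12 and 16 of the 15024 regions at 20 or more (0.106%, 0.0656 to 0.173) were Dex-missing.

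In classes of both densities, 546 of 1507 regions (36.2%, 33.8 to 38.7) below 8 untreated and below 6 after E2 were Dex-missing. The regions of this kind that did pass in the Dex list had a median density of 5.14 there, and 5.22 in the Dex+E2 list. At 20 or more untreated and 8 or more after E2, 5 of 12406 regions (0.0403%) were Dex-missing, and the median of the listed ones was 21.3 after Dex. In the class from 8 to below 12 untreated, the share was 15.9% below an E2 density of 6, 17.8% from 6 to below 8 and 4.73% at 8 or more. Of sites with these untreated and E2 densities, then, those missing from both Dex lists were a minority in every class. This does not mean that most weak sites were in both Dex lists. At untreated densities from 5 to below 6, 30.2% were in all 4 lists and 34.7% were missing from both Dex lists. A further 22.0% were missing from Dex only and 13.1% from Dex+E2 only.

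**Figure D2:**
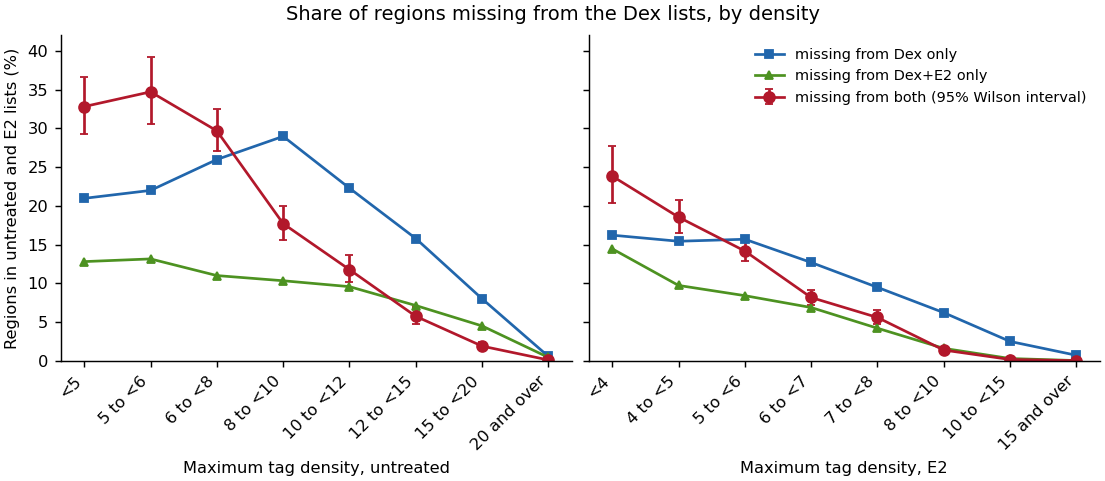
Share of the regions in the untreated and E2 lists that were missing from both Dex lists (red, Wilson 95% intervals), from Dex only (blue) or from Dex+E2 only (green), in classes of untreated density (left) and of E2 density (right). By untreated density the red share is 32.8% below 5 and 34.7% from 5 to below 6, and falls from there to 0.106% at 20 and over.

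The 16 Dex-missing regions with an untreated density of at least 20 were the densest without hormone and lay on 13 chromosomes. Their density after E2 was between 5.20 and 10.2, with a median of 7.20. As deposited, the counting interval after E2 lay below the untreated one at each of the 16. The intervals were not compared relative to the library medians. The median log2 ratio of E2 to untreated density was −1.70 over these 16 and −1.69 over all 15024 regions of that untreated density in both lists. Their Z scores were between 15.9 and 42.7 in untreated cells and between 5.39 and 9.20 after E2. After E2, 7 of the 16 lay within 1 of the lowest score of the list, and 3 lay above the median score of the E2 list, 8.13.

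At chr10:85907310-85908580 the density was 33.4 untreated (Poisson 95% interval, 27.9 to 39.6), with a Z score of 42.7, and 7.0 after E2 (4.88 to 9.73). As deposited, the intervals do not overlap, and the ratio, log2 −2.26, was the lowest of all 1220. The Dex list held 2 other regions within 50 kb, at densities of 5.63 and 5.88, and the Dex+E2 list held 3, from 5.22 to 7.26. The untreated density was 5.93 times that of the sparsest Dex region nearby as deposited, and 2.90 times with both divided by their library's median at the sites of all 4 lists.

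The highest untreated density of all members, 34.4 (28.9 to 40.8), was at chr12:88213091-88213810, where E2 density was 10.2 (7.59 to 13.4). Here the surroundings were dense, and the sparsest of the 10 Dex regions within 50 kb had 12. At chr4:59286089-59286784 the values were 32.6 (27.2 to 38.8) and 8.40 (6.05 to 11.4), and the sparsest Dex region nearby had 17.1, the highest such value among the 16. This site lay 61.7 kb from chr4:59348435-59349795, which was listed only with Dex, at 115, and with Dex+E2, at 80.3. At chr6:67425410-67426128 the density was 27.3 untreated and 10.2 after E2, and a Dex region of 8.57 was listed nearby.

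A similar contrast was seen at chr16:91362565-91364105, which was 1541 bp wide and among the 3 widest members, with 22.2 untreated and 5.20 after E2. At chr14:75252513-75253436 the densities were 20.9 and 5.40, at chr5:118914931-118915782 22.7 and 6.0, and at chr15:38304426-38305103 23.5 and 7.20. The Dex list held regions as sparse as 5.63, 5.63, 6.61 and 7.84 within 50 kb of these sites, in the same order. In the Dex+E2 list the sparsest had 6.13 near the chr16 site and 6.35 near the chr5 site, and none was listed near the chr14 site. Near the chr15 site the only Dex+E2 region had 25.6, above the untreated density of the site itself. Over all 16, the untreated density was 1.90 to 5.93 times that of the sparsest listed Dex region nearby (median 2.98) as deposited. For Dex+E2, where 15 had a listed region within 50 kb, the ratio was 0.915 to 6.40 (median 2.78). Relative to the library medians, these ratios were 0.930 to 2.90 (median 1.45) for Dex and 0.469 to 3.28 (median 1.42) for Dex+E2, and they were at least 2 at 1 and 2 of the sites. The 16 were picked for their untreated density, so these ratios are a description.

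**Figure D3:**
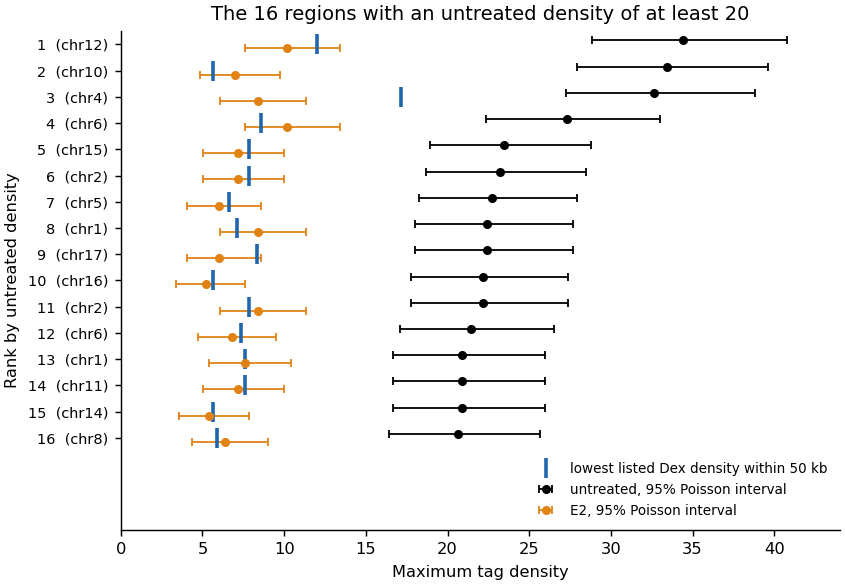
Maximum tag density of the 16 Dex-missing regions with an untreated density of at least 20, ranked by it, in untreated cells (black) and after E2 (orange) with exact Poisson 95% intervals. Blue ticks mark the sparsest region the Dex list holds within 50 kb, which ranged up to 17.1, and every untreated value lies to the right of its tick.

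Among all 1220, 1083 had another Dex region within 50 kb, and the sparsest of these had a median density of 6.12 (quartiles 5.14 and 7.59). As deposited, the member's own untreated density was below that of the sparsest Dex region nearby in 305 of the 1083 (28.2%), against 5.35% of all regions in the untreated and E2 lists. The E2 density was below it in 686 (63.3%), against 26.6%. For Dex+E2 the counts were 269 and 639 of 1050, against 4.87% and 25% of all. The result turned on the scaling, an alternative added after the data were examined. Relative to the library medians, the untreated density was below that of the sparsest Dex region nearby in 965 of the 1083 (89.1%, against 24.7% of all), and the E2 density in 147 (13.6%, against 7.36%). For Dex+E2 these were 913 (87.0%, against 22.1%) and 145 (13.8%, against 6.6%) of 1050. Since members were chosen by these calls and were mostly weak, the higher shares are a description. The part of local background in their absence from the Dex lists was not tested.

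Several members that were dense after E2 had Dex-listed regions of like density beside them. The highest E2 density, 17.6 (14.1 to 21.7), was at chr2:177303346-177304147, where the untreated density was 14.5 (11 to 18.8). A Dex region of density 16.9 lay 451 bp away, and a Dex+E2 region of 16.3 lay 860 bp away. The next 3 by the smaller of both densities lay together within 22.3 kb on chromosome 1. They were chr1:90135948-90136414 (13.0 untreated, 14.6 after E2), chr1:90146023-90146750 (13.8 and 12.6) and chr1:90157728-90158253 (12.8 and 12). Their Z scores were low for such densities, at 5.49, 6.26 and 5.48 untreated and 7.59, 5.92 and 5.43 after E2, in the same order. The lowest scores of these lists were 4.95 and 5.26. Within 50 kb of this stretch there were 61 merged regions, 25 of them in 1 list only and 13 in all 4, and the median densities of the untreated, Dex, E2 and Dex+E2 lists were 13.4, 14.0, 13.6 and 13.4. No region was listed there below 11.3 in any library. At chr17:3028409-3028982 (16.1 and 10.8) a Dex region of 11.8 lay 711 bp away.

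At 3 other members of this rank the nearest Dex region was farther away. At chr6:145393086-145393766 the densities were 11.5 (8.37 to 15.4) untreated and 11.4 (8.63 to 14.8) after E2, with Z scores of 9.43 and 9.93, and the nearest Dex region was 4.84 kb and the nearest Dex+E2 region 2.65 kb away. At chr12:86933740-86934297 they were 15.6 and 10.0, and at chr6:140516264-140516887 15.1 and 9.80. The nearest Dex region was 6.43 kb away at the former, with a Dex+E2 region at 1.02 kb, and 18.9 kb away at the latter, with a Dex+E2 region at 19.0 kb.

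Of the 5 members with the highest ratio of E2 to untreated density, the densest was chr16:24382213-24382879, at 7.91 (5.37 to 11.2) untreated and 12.6 (9.68 to 16.1) after E2. The other 4 were chr12:19674126-19674743 (2.04 and 3.80), chr14:83898132-83898741 (3.57 and 6.0), chr15:20937401-20938000 (4.59 and 7.40) and chr5:99071567-99072375 (5.10 and 8.20). As deposited, the counting intervals of the untreated and E2 values overlapped at all 5. The libraries differ on this scale, with medians of 30.1 and 10.2 at the sites of all 4 lists. The intervals were not compared relative to these medians, so the overlap does not show equal densities. At the bottom of the range 9 members shared an untreated density of 2.04, which was 8 tags, with 2.20 to 3.80 after E2, among them chr12:21919188-21919656 (2.60 after E2) and chr2:22287009-22287418 (2.40). Just outside the rule, 4 regions listed in 1 of the Dex libraries shared the lowest density there, 2.04 after Dex+E2. They include chr13:66819548-66820077 (3.32 untreated, 2.20 after E2) and chr5:14989038-14989423 (2.55 and 2.20). The next had 2.20 after Dex, so calls reached down to about the same density on either side of the rule.

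In width, Dex-missing regions were narrow. The untreated region had a median width of 521 bp and the E2 region of 379 bp, against 960 and 635 bp at the sites in all 4 lists. The untreated region was the wider in 923 of 1220. Their midpoints lay a median of 59 bp apart, against 57.5 bp at the sites in all 4 lists. In 727 members (59.6%) the shorter region lay wholly inside the longer, against 87.6% of the sites in all 4 lists. In 67 (5.49%) the overlap was under 50% of the shorter, against 0.266%, and 1215 consisted of 1 region from each list. The rule itself requires the regions of a member to touch or overlap. The widest members after chr14:65270942-65272505 (1564 bp, 11.2 untreated and 5.60 after E2) were chr16:91362565-91364105 and chr2:117945732-117947204 (1473 bp, 10.5 and 6.80).

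Position entered the choice of the regions only through overlap, since a region that overlapped or touched a Dex or Dex+E2 region could not be a member. Gaps are thus measured only between regions that stayed separate after merging. The gap to the nearest region found in all 4 lists had a median of 26.3 kb (quartiles 7.60 and 91.7). It was 17.8 kb for regions shared by the untreated and Dex lists alone, 21.1 kb for those in the untreated and Dex+E2 lists only and 57.2 kb for those in the untreated list only. Within 1 kb of such a region lay 74 members (6.07%, 4.86 to 7.55), against 12.4% (11.5 to 13.5) of the regions shared by the untreated and Dex lists alone and 6.43% (5.68 to 7.26) of those in the untreated and Dex+E2 lists only. Beyond 100 kb lay 23.4% of the members (21.2 to 25.9), against 15.8% and 15.4% of these groups and 40.3% of the regions in the untreated list only. It was 12.4% for regions missing from Dex only and 16.1% for those missing from Dex+E2 only. The groups also differ in density. The untreated median was 7.65 for the members, 8.67 and 8.42 for these groups and 5.61 for regions in the untreated list only. The part of density in these gaps was not tested. Regions of a group that lie close together are not independent, so the intervals may be too narrow.

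**Figure D4:**
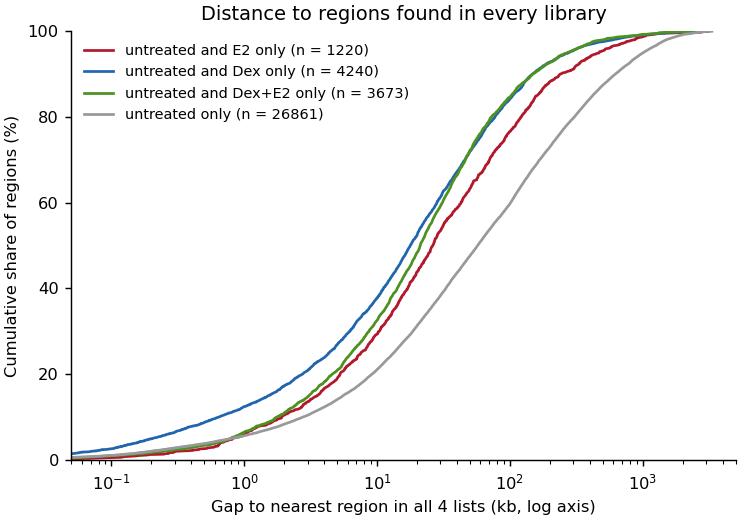
Cumulative share of regions (vertical) by the gap to the nearest region found in all 4 lists (horizontal, kb, log axis). The curve of the 1220 regions in the untreated and E2 lists only (red) lies between those of the other regions in 2 lists (blue and green) and that of regions in the untreated list only (grey) over most of the range, with a median of 26.3 kb.

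Dex-missing regions were also set against the 1984 sites that were listed in both Dex libraries and nowhere else. The median gap to such a site was 326 kb for the members and 263 to 314 kb for the 5 groups they were compared with. Such a site lay within 100 kb of 310 members (25.4%, 23.0 to 27.9). The share was 23.3% for regions in the untreated and Dex lists only, 22.8% for those in the untreated and Dex+E2 lists only, 22.7% for those missing from Dex+E2 only, 27.5% for those missing from Dex only and 26.6% for those in all 4 lists. With the 162 of these sites that reached a density of 20, 39 members (3.20%, 2.35 to 4.34) lay within 100 kb, against 2.26% to 3.57% in the 5 groups. By these shares the members lay within the range of the groups they were set beside. The nearest was chr8:96691123-96691637 (6.38 untreated, 5.20 after E2), at 3.35 kb from chr8:96694990-96695866, which had 42.1 after Dex and 34.9 after Dex+E2. This pair is named for its distance, after the values were seen.

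Every chromosome from 1 to 19 and X held members, from 29 on chromosome 19 to 95 on chromosome 2. Their share of the regions in the untreated and E2 lists was lowest on chromosome 5 (55 of 1478, 3.72%, 2.87 to 4.81) and highest on chromosome 12 (79 of 1134, 6.97%, 5.63 to 8.60). The intervals of chromosomes 5, 11, 12 and 14 did not include the 4.98% of all chromosomes, and those of the other 16 did. Members on X were the sparsest, with medians of 4.34 untreated and 3.60 after E2. The densities of all regions on X were not set beside them. Neighbouring members lay a median of 1.11 Mb apart, and 23 pairs lay within 10 kb of each other. Most 1-Mb bins with any member held 1 (608 bins) or 2 (188 bins), and 4 bins held 5 or 6. In the fullest bin, 6 of 12 regions in the untreated and E2 lists were members. These members lay within chr4:113156820-113836965, all between 2.81 and 4.34 untreated. In the bin with members at chr6:130000815-130778287, 5 of 16 were members, between 3.83 and 6.63 untreated. The other bins with 5 members held many more listed regions. They had 5 of 45 at chr12:116020032-116729781 (3.06 to 7.91 untreated) and 5 of 44 at chr3:95121259-95874091 (2.04 to 13.0). The fullest bins were picked after their counts were seen.

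**Figure D5:**
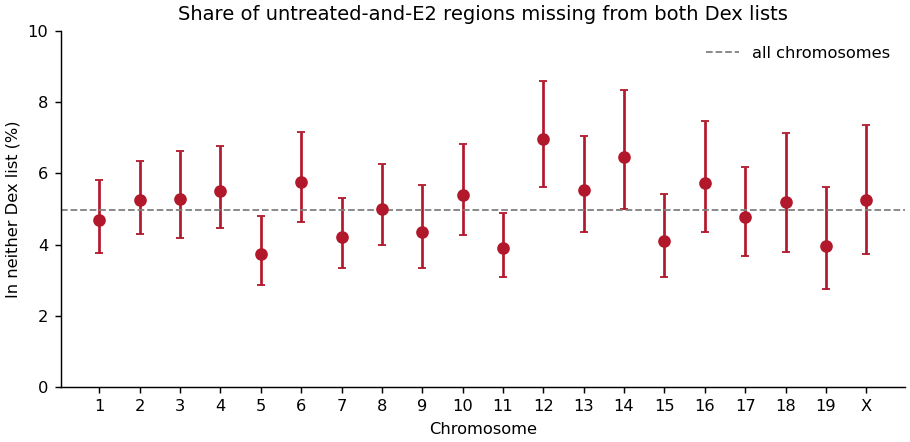
Share of the regions in the untreated and E2 lists that were missing from both Dex lists, by chromosome, with Wilson 95% intervals. The dashed line is the share over all chromosomes, 4.98%, and the values run from 3.72% on chromosome 5 to 6.97% on chromosome 12.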

How the data were processed

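DNase-seq regions of 4 libraries, 1 per condition, were analysed. Per the file headers, each deposited region carries a maximum (MaxD) and average (AveD) density of tags, a signal that the authors scaled per library, with a Z score and a p-value. The submitters' processing notes name build mm9 and CASAVA 1.8, without a role. Which aligner and region caller were used is not given in the sources used here. Regions were called in each library separately. Within 0.02 tags, 100% of the MaxD values of each library are multiples of a common step, taken as the value of 1 tag. Read totals are not given, so depth is unknown beyond tags per summit. The authors' deposited p-value and Z score belong to a region's own library, and the p-values were not used.

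Regions were merged when the next start was at or before the previous end. A merged region takes the highest value of its regions in a library. Gaps and shares of merged regions were then computed, with Wilson intervals for shares and exact Poisson intervals for tags, at the 95% level. The members and lists were chosen with earlier results of these data known. Regions named are the 10 members with the highest smaller density, the 5 highest in untreated, in E2, and by highest and lowest ratio, the 3 widest, the 3 sparsest, and the 5 sparsest just outside. Planned motif and gene results were not run, as no mm9 sequence or annotation was used here. Planted presence patterns were recovered on simulated lists made of slightly shifted copies of untreated regions. Such copies always overlap, so this checks the merging step only and not weak or partly overlapping calls. Alternatives covered joining, overlap, list length, density measure, scaling, chromosome X and leaving out each library. Figures were drawn with Matplotlib 3.10.9, and values computed with pandas 2.3.3 and SciPy 1.17.1 (Python 3.11.15).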

Additional observations from a re-analysis of the deposited data

How the results depend on the processing

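The number of Dex-missing regions was 1215 to 1223 with regions within 150 bp joined, with adjacent positions joined (an alternative chosen after seeing the data) or with an overlap of at least 50% of the shorter region required, and 1189 without chromosome X. With lists of equal length it was 954, or 4.32% of the regions in the untreated and E2 lists, with a median log2 ratio of −0.95. With the denser 50% of the untreated and E2 lists alone it was 113, or 0.718%. Leaving out a library loosens the rule, and the counts then ranged from 2060 to 28123 and the shares from 8.39% to 43.0%. They were 2060 (8.39%) without the Dex, 2959 (12.1%) without the Dex+E2, 8499 (24.8%) without the untreated and 28123 (43.0%) without the E2 library. The median log2 ratio of E2 to untreated density was −0.48 with average density and 1.18 relative to the library medians, which turns its direction. Median average densities were 1.98 untreated and 1.44 after E2. The median gap to regions in all 4 lists was 27.1 kb with regions within 150 bp joined. No paired analysis was possible because each condition has 1 library and the result comes from no test. Summits of about 30 tags leave counting intervals wide, and a site missing from a list has no value there.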
